A study of Mus musculus with 6 samples.

Results

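The vitamin K-dependent clotting proteins are made by hepatocytes and share a chemical step. The carboxylase encoded by Ggcx turns glutamates near their amino end into gamma-carboxyglutamate (Gla), which binds calcium and lets the protein dock on membranes. Each turn uses up reduced vitamin K, which the reductase encoded by Vkorc1, the target of warfarin, restores. The proteins work on both sides of clotting: prothrombin and factors VII, IX and X drive it, and proteins C, S and Z hold it back.

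The 10 genes were chosen by name. They are 4 procoagulant factors (F2, F7, F9, F10), 3 genes of the proteins C, S and Z (Proc, Pros1, Proz), and 3 enzyme genes (Ggcx, Vkorc1, Vkorc1l1). The platform's gene table named a row for 9 of these 10 among the 16331 rows measured. The level of Vkorc1l1, a paralog of Vkorc1, was not analysed here, and only its promoter was read. The samples were primary hepatocytes of male C57Bl6 mice cultured between collagen layers. In the series, which was about screening for drug toxicity in the liver, 3 cultures received cyclosporin A (CsA) at 10 µM for 48 hours and 3 control cultures received 0.5% DMSO as vehicle. The labels describe independent experiments from 3 different animals, with 1 array per sample. They do not say whether the CsA cultures also held DMSO, so that each difference is between the cultures as labelled. CsA, given after transplantation to suppress T cells, blocks calcineurin through a complex with cyclophilin.

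All levels are on a log2 scale and came from RMA, a method that adjusts the background, gives all arrays the same distribution and summarises the probes of a gene. The lowest value in the table was 2.44 and the highest 15.30, and array medians lay between 6.70 and 6.78. Levels are not compared between genes, since each row has its own probes. In the limma fit over all 16331 rows, 3037 rows (18.6%) passed an adjusted p under 0.05. Of all rows, 9.05% were lower and 9.55% higher in CsA. With the replicate number as a block the count was 4686 rows (28.7%), with 12.9% lower and 15.8% higher. The 2 groups of arrays did not overlap in 35.1% of all rows, and in 15.3% every CsA array lay below every DMSO array.

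After CsA, 7 of the 9 measured genes were lower and none was higher (limma, adjusted p under 0.05, 0 higher also at an unadjusted p under 0.05). Over all rows the shares were 9.05% lower and 9.55% higher. All 4 procoagulant factors fell, and so did Proc, Proz and Vkorc1. In these 7 genes every CsA array lay below every DMSO array, which held for 15.3% of all rows. Pros1 and Ggcx did not pass. The median difference of the 9 genes was -1.10 on the log2 scale, against 0.035 over all rows.

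Among the procoagulant factors, F9 had the largest difference. It encodes factor IX, the protease missing in haemophilia B. Its level was 10.25, 10.38 and 10.22 on the DMSO arrays and 8.62, 8.36 and 8.87 on the CsA arrays. The DMSO arrays lay close together, and the lowest of them stood 1.35 above the highest CsA array. The difference was -1.67 ± 0.14 (log2, CsA minus DMSO ± SE, n = 3 each, limma adjusted p = 0.000174), a 3.17-fold fall with a 95% interval of 2.54 to 3.96.

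F10 encodes factor X, which cleaves prothrombin. Its level was 9.97, 10.35 and 10.59 in DMSO and 8.85, 8.62 and 9.20 in CsA. The groups did not overlap, and within each group replicate 3 was the highest. F10 fell 2.66-fold (-1.41 ± 0.19, limma adjusted p = 0.00157).

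F7 encodes factor VII, which starts clotting together with tissue factor. Its level was 8.49, 8.58 and 8.53 in DMSO and 7.24, 7.00 and 7.47 in CsA. The spread was smaller in DMSO (SD 0.046) than in CsA (SD 0.24), and both were small beside the gap between the groups. F7 fell 2.46-fold (-1.30 ± 0.13, limma adjusted p = 0.000406).

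F2 encodes prothrombin, the precursor of thrombin. Its level was 13.61, 13.45 and 13.34 in DMSO and 12.44, 12.24 and 12.42 in CsA. All CsA arrays were lower, with a gap of 0.90 between the groups. F2 fell 2.15-fold (-1.10 ± 0.12, limma adjusted p = 0.000476).

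Of the anticoagulant group, Proz fell most, and it had the largest difference of the 9 genes. Protein Z has no protease activity of its own and assists an inhibitor of activated factor X. The Proz level was 8.81, 8.57 and 7.70 in DMSO and 5.94, 6.16 and 5.48 in CsA. Replicate 3 was the lowest array of both groups, and the groups still stood 1.53 apart. The fall was 5.65-fold with a 95% interval of 3.61 to 8.85 (-2.50 ± 0.28, limma adjusted p = 0.000653).

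Proc encodes protein C, which once activated cleaves the clotting cofactors V and VIII. Its level was 10.54, 10.56 and 10.63 in DMSO and 9.58, 9.34 and 9.91 in CsA. All CsA arrays were lower, with a wider spread (SD 0.29 against 0.049). Proc fell 1.96-fold (-0.97 ± 0.15, limma adjusted p = 0.00269).

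Pros1 encodes protein S, the cofactor of protein C, and it stood apart from the other factors. Its level was 8.47, 8.31 and 7.96 in DMSO and 8.55, 8.33 and 7.72 in CsA. The groups overlapped, and replicate 1 was the highest and replicate 3 the lowest in both. The difference was -0.045 ± 0.22 (limma adjusted p = 0.927), with a 95% interval of -0.54 to 0.45 that does not reach the interval of any of the other 6 factors. The interval still allows a fall as large as that measured for Vkorc1.

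**Figure D1:**
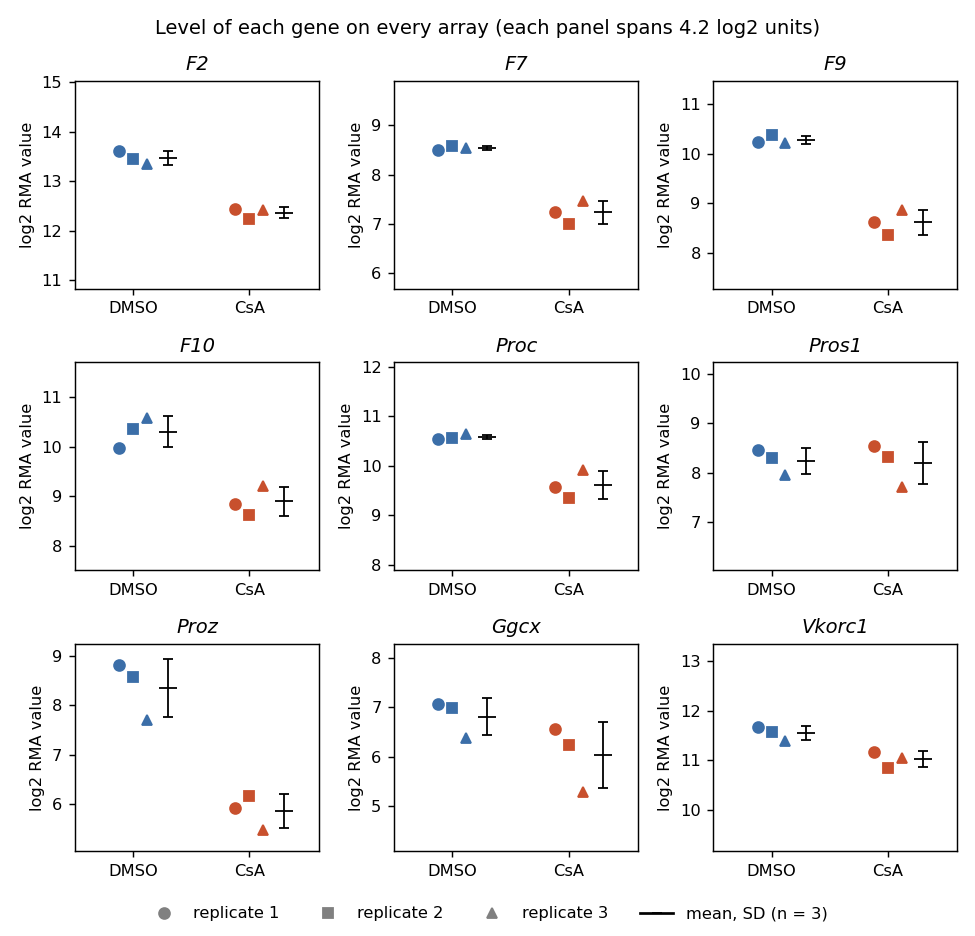
Log2 RMA value (y axis) of the 9 measured genes on the 3 DMSO arrays (blue) and the 3 CsA arrays (red), with marker shapes for the replicate number and a black bar for the mean and SD of each group (n = 3). In every panel but those of Pros1 and Ggcx, all CsA arrays lie below all DMSO arrays.

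Of the enzyme genes, Vkorc1 fell and Ggcx did not pass. The Vkorc1 level was 11.67, 11.57 and 11.39 in DMSO and 11.17, 10.84 and 11.04 in CsA. All CsA arrays were lower, but the groups stood only 0.22 apart. Vkorc1 fell 1.44-fold with a 95% interval of 1.18 to 1.76 (-0.52 ± 0.13, limma adjusted p = 0.0217). Leaving out 1 array ended this call in limma for DMSO 1 (adjusted p = 0.0813), for DMSO 2 (adjusted p = 0.0796) and for CsA 2 (adjusted p = 0.0936).

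The Ggcx level was 7.08, 6.98 and 6.39 in DMSO and 6.57, 6.25 and 5.30 in CsA. The groups overlapped, and replicate 3 was the lowest of both. The difference was -0.78 ± 0.31 and did not pass (limma adjusted p = 0.126). It lay between -1.04 and -0.41 with 1 array left out, and was smallest without CsA 3. Between arrays of the same number Ggcx was lower in CsA in all 3 cases, by -0.51, -0.73 and -1.09. With the replicate number as a block the SE was 0.12 and the row passed (limma adjusted p = 0.00369), which makes 8 of 9 genes lower against 12.9% of all rows. It also passed without both arrays numbered 3, at -0.62 (limma adjusted p = 0.018).

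**Figure D2:**
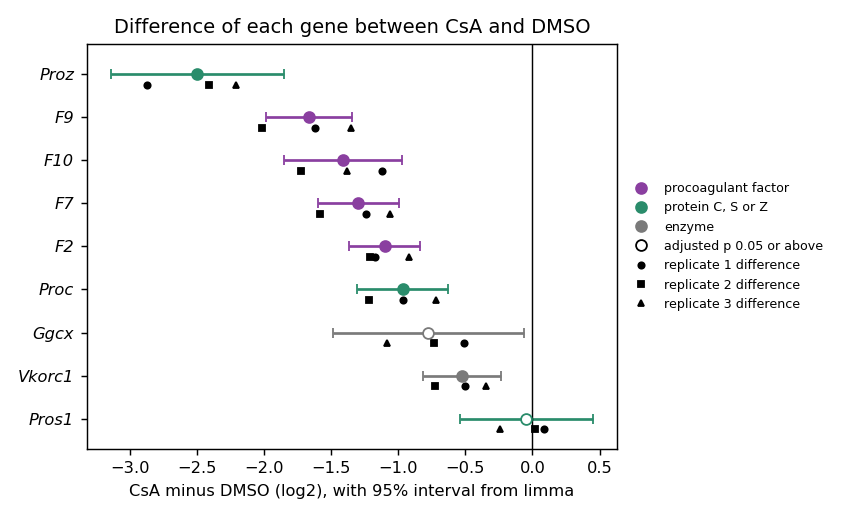
Log2 difference between CsA and DMSO (x axis, CsA minus DMSO) for each gene, with the limma 95% interval and, in small black markers, the difference between arrays of the same replicate number. Open circles did not pass an adjusted p of 0.05, and the genes run from Proz (-2.50) at the top to Pros1 (-0.045) at the bottom.

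Ordered by the size of the fall, the called genes ran Proz, F9, F10, F7, F2, Proc and Vkorc1. The 95% interval of Proz overlapped that of F9 and of none of the other 7 genes, narrowly so for F10. From F9 down, the intervals of neighbours in this order overlapped, while that of F9 did not overlap those of Proc and Vkorc1. Between arrays of the same number F9 fell more than F7, F2, Proc and Vkorc1 in all 3 cases, and more than F10 in 2 of 3. These differences between genes were not tested. The drop was largest between arrays numbered 2 for F2, F7, F9, F10, Proc and Vkorc1, and between arrays numbered 1 for Proz.

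Factors and carboxylation enzymes were set against each other array by array, each gene measured from its own DMSO mean. The 7 factors averaged -1.22, -1.39 and -1.24 on CsA arrays 1, 2 and 3. Ggcx and Vkorc1 averaged -0.31, -0.63 and -1.01. The factors were thus lower than the enzymes by -0.91, -0.76 and -0.23, while the same quantity was -0.14, -0.036 and 0.18 on the DMSO arrays. All CsA arrays lay below all DMSO arrays in this quantity, but CsA replicate 3 did so narrowly. The CsA mean was -0.63 ± 0.35 (SD, n = 3), given as a description without a test.

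The enzyme chosen mattered. Measured against Vkorc1 within each array, 6 of 7 factors (all but Pros1) had lower values on every CsA array than on every DMSO array. The same 6 factors already did so on their own, as did 15.3% of all rows. The share of all rows that lie apart relative to Vkorc1 or Ggcx was not computed, so these counts have no background. Against Ggcx only Proz did, 5 factors overlapped, and Pros1 was higher relative to Ggcx on every CsA array. F9 relative to Vkorc1 differed by -1.13, -1.29 and -1.01 for replicates 1, 2 and 3. F9 relative to Ggcx differed by -1.11, -1.29 and -0.27, the last beside the low Ggcx level on CsA replicate 3. With 3 arrays against 3, a two-sided exact permutation test cannot go below 0.1, and none was run on these ratios.

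**Figure D3:**
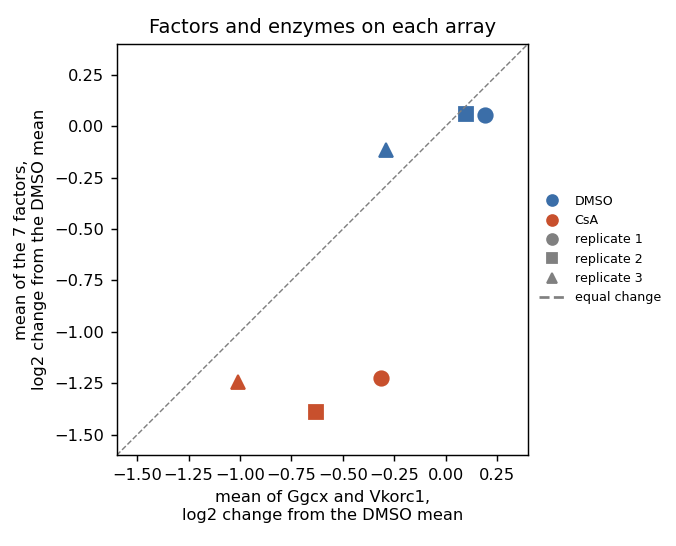
Mean log2 change from the DMSO mean of the 7 factors (y axis) against that of Ggcx and Vkorc1 (x axis), 1 point per array. The dashed line marks equal change. The 3 CsA arrays lie below it, by 0.91, 0.76 and 0.23 in the order of their replicate numbers.

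The promoters of these genes were read in RefSeq (GRCm38.p6) from 250 bases before to 50 bases after the start, in 9 of the 10 genes (all but Proc). The motifs of liver and general transcription factors, 7 in all, were searched on both strands. The HNF4 motif CAAAGNNCA was in 6.36% of 32851 promoters of that length, and among the 9 genes it was found in F9, with 2 matches, and in F7, with 1. The ONECUT motif ATCAAT (7.54% of promoters) was found in F9, F2 and Vkorc1. The C/EBP motif TTNNGNAA (40.7%) was found in F9, F10, Pros1, Ggcx and Vkorc1. The NF-Y motif CCAAT (37.4%) was found in F7, F10, Vkorc1 and Vkorc1l1. The Sp1 motif GGGCGG (35.7%) had 5 matches in Pros1, 6 in Vkorc1l1 and 1 each in Ggcx and Vkorc1. The FOXA motif TGTTTAC (3.65%) was found in Vkorc1, and the HNF1 motif (0.14%) in none of the 9. Proz had no match to any motif in this window.

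The stretches from 120 bases before the start to 10 bases after it are shown for 2 factors that fell, for Pros1, which did not pass, and for the enzyme gene Vkorc1. F9 and F7 are the genes with an HNF4 match. F2, F10 and Proz also fell and have no HNF4 match in the window searched. Capitals mark every match to the 7 motifs. In F9 they are, from left to right, HNF4, ONECUT, C/EBP and HNF4, and in F7 NF-Y and HNF4. In Pros1 all are Sp1, the last 2 of which overlap, and in Vkorc1 they are 3 NF-Y matches and 1 Sp1 match. The regions are chrX:59999344-59999473 on the plus strand for F9, chr8:13025914-13026043 on the plus strand for F7, chr16:62854187-62854316 on the plus strand for Pros1 and chr7:127895608-127895737 on the minus strand for Vkorc1.
F9: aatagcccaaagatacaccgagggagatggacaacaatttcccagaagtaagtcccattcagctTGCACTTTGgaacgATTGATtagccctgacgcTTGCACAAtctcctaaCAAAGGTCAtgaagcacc
F7: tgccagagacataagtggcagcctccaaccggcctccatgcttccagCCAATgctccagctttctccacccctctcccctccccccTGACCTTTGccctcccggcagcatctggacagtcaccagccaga
Pros1: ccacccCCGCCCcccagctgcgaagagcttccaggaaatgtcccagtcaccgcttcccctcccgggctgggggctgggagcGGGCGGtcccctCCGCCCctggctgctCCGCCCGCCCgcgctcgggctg
Vkorc1: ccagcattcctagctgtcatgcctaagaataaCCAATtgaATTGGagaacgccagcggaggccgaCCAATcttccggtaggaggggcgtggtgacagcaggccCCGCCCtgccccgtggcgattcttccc
A match gives the letters only. No binding was measured in this series.

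Of 12 measured genes of transcription factors known to act on such promoters, 4 were lower and 1 was higher. Over all rows the shares were 9.05% and 9.55%. The median difference of 0.012 turned sign with single arrays left out (-0.18 to 0.16). Hnf4a, a nuclear receptor that controls many hepatocyte genes, was at 10.05, 9.91 and 9.56 in DMSO and 8.28, 7.95 and 8.11 in CsA, and fell 3.31-fold (limma adjusted p = 0.000196). Onecut1, which encodes HNF6, fell by 2.82 on the log2 scale, from 8.93 ± 0.57 to 6.11 ± 0.21 (mean ± SD, n = 3). Dbp, a clock-controlled factor, fell by 1.02 and Foxa3 fell by 0.67. Sp1 was the gene that rose, by 0.42, named after its value was seen, and it no longer passed with DMSO 1, DMSO 2 or CsA 2 left out. Cebpa differed by -0.31 ± 0.17 and did not pass (limma adjusted p = 0.271).

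The factors F7, F10 and Proz are neighbours on chromosome 8, with no other protein-coding gene between them in the RefSeq gene order. All 3 fell. Of the 4 protein-coding genes on either side, all 8 of them measured, 1 was lower and 7 did not pass. This count is near the background of 9.05% of all rows lower. The next gene before F7, Mcf2l, differed by 0.37 ± 0.12 (limma adjusted p = 0.0609, and adjusted p = 0.0188 with the replicate block, as higher, and it passed with DMSO 3 left out). The next gene after Proz, Pcid2, differed by 0.56 ± 0.25 (limma adjusted p = 0.17, and adjusted p = 0.00611 with the block, as higher, and it passed with CsA 3 left out). Grtp1, the farthest of the genes on the Proz side, was the one that fell, by 0.93 (limma adjusted p = 0.00111).

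**Figure D4:**
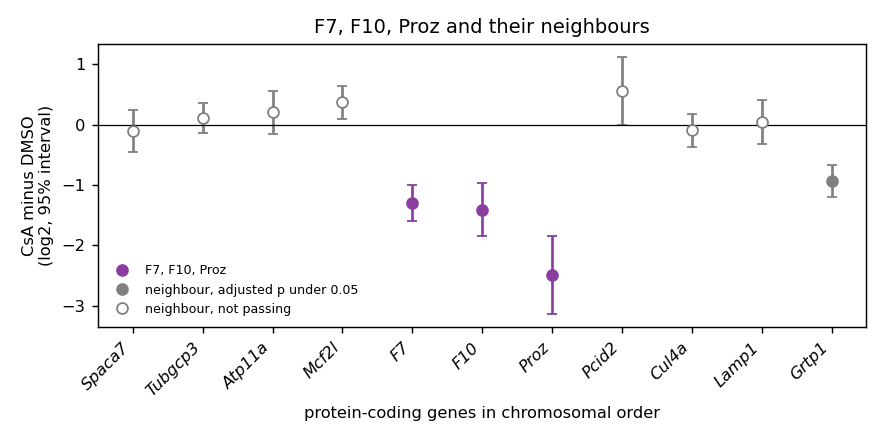
Log2 difference between CsA and DMSO and its limma 95% interval (y axis) for F7, F10, Proz and the 4 protein-coding genes on either side, in chromosomal order (x axis, not to distance). The 3 factors lie at -1.30, -1.41 and -2.50, and of the neighbours Grtp1 is the one filled as passing, at -0.93.

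Genes of proteins that work with the factors were mostly lower or did not pass. Among cofactors, inhibitors and receptors 8 of 17 measured genes were lower and 1 higher, against 9.05% and 9.55% of all rows. The median difference was -0.46, and -0.72 to -0.45 with 1 array left out, when 7 to 9 genes were lower. Of the lower genes, F11 no longer passed with DMSO 2, CsA 1, CsA 2 or CsA 3 left out. F2r no longer passed with CsA 1 left out. Both were named after their values were seen. Blocking on the replicate number gave 10 lower and 2 higher, against 12.9% and 15.8% of all rows. The genes added, named after their values were seen, were F8 (factor VIII, the cofactor of factor IX, block adjusted p = 0.0262 in limma), Thbd (thrombomodulin, 0.00789) and, as higher, the receptor gene Tyro3 (0.0421). Serpina10, which encodes the inhibitor that protein Z assists, was at 11.90, 12.12 and 11.96 in DMSO and 9.39, 9.04 and 9.23 in CsA. It fell 6.85-fold (-2.78 ± 0.13, limma adjusted p = 1.72e-05), beside the 5.65-fold fall of Proz. F3, which encodes tissue factor, the partner of factor VII, fell 4.49-fold. The thrombin inhibitor genes Serpinc1 (antithrombin) and Serpind1 (heparin cofactor II) fell 3.05-fold and 3.23-fold. F5, the cofactor of factor X, fell 3.04-fold, from 9.85 ± 0.71 to 8.24 ± 0.37 (mean ± SD, n = 3). C4bp, whose product binds protein S in human plasma, fell 4.26-fold and was named after its value was seen. The 1 higher gene was Procr, the protein C receptor, also named after its value was seen (0.83 ± 0.20, limma adjusted p = 0.0224). It no longer passed with DMSO 2, DMSO 3, CsA 1 or CsA 2 left out, while 2 genes were higher with CsA 3 left out.

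Genes of propeptide cleavage, EGF domain modification and protein export moved both ways. Which of them act on the vitamin K-dependent factors was not examined. Among 13 measured, 2 fell and 2 rose, beside 9.05% of all rows lower and 9.55% higher. The median of -0.077 lay between -0.16 and -0.045 with 1 array left out. With the replicate block 3 were lower, the added one being Mcfd2, which encodes a partner of the cargo receptor Lman1 and was named after its value was seen. It differed by -0.38 ± 0.12 (limma adjusted p = 0.0546, and adjusted p = 0.0231 with the block) and also passed with DMSO 3 left out. Furin, a protease that removes propeptides, fell by 0.67, from 9.49 ± 0.11 to 8.82 ± 0.19 (mean ± SD, n = 3), and the related Pcsk5 fell by 0.93. Gxylt1, which extends sugars on EGF domains, rose by 0.43 and the cargo receptor gene Surf4 rose by 0.37. Both rises were narrow calls. Gxylt1 passed with DMSO 3 left out and with no other array left out, and Surf4 passed with CsA 3 left out and with no other.

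Of 11 measured genes of vitamin K handling, 2 were lower and 1 higher (median -0.040, and -0.099 to -0.033 with 1 array left out). Over all rows 9.05% were lower and 9.55% higher. Cyp4f14 and Cyp4f15, of the P450 family whose human member CYP4F2 breaks vitamin K down, fell 2.69-fold and 1.83-fold. Cyp4f13 of the same family, named after its value was seen, did not pass (-0.18 ± 0.12, limma adjusted p = 0.389). P4hb, a disulfide isomerase of the endoplasmic reticulum, rose by 0.71 but no longer passed with DMSO 2, DMSO 3, CsA 1 or CsA 2 left out. Nqo1, a quinone reductase, differed by -0.33 ± 0.22 (limma adjusted p = 0.355), and Calu, whose product calumenin inhibits carboxylation, by 0.086 ± 0.19 (limma adjusted p = 0.833).

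Of 6 measured genes of other Gla proteins none passed in limma. As higher, 1 stood out, Prrg4, at an unadjusted p under 0.05, and it passed with the replicate block or without CsA replicate 3. The count of 0 is near the background of 9.05% of all rows lower and 9.55% higher. With the block 15.8% of all rows were higher. No difference from the factors was tested. The median of -0.063 turned sign with single arrays left out (-0.13 to 0.073). Gas6, a ligand of TAM receptors related to protein S, was at 9.16, 9.84 and 9.46 in DMSO and 9.03, 9.22 and 9.35 in CsA, and the groups overlapped (-0.29 ± 0.17, limma adjusted p = 0.322). Prrg4, a membrane Gla protein, was higher in CsA on every array (0.46 ± 0.15, limma adjusted p = 0.0652, and adjusted p = 0.0111 with the block). Prrg2 differed by -0.12 and Prrg3 by -0.11, both without passing.

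**Figure D5:**
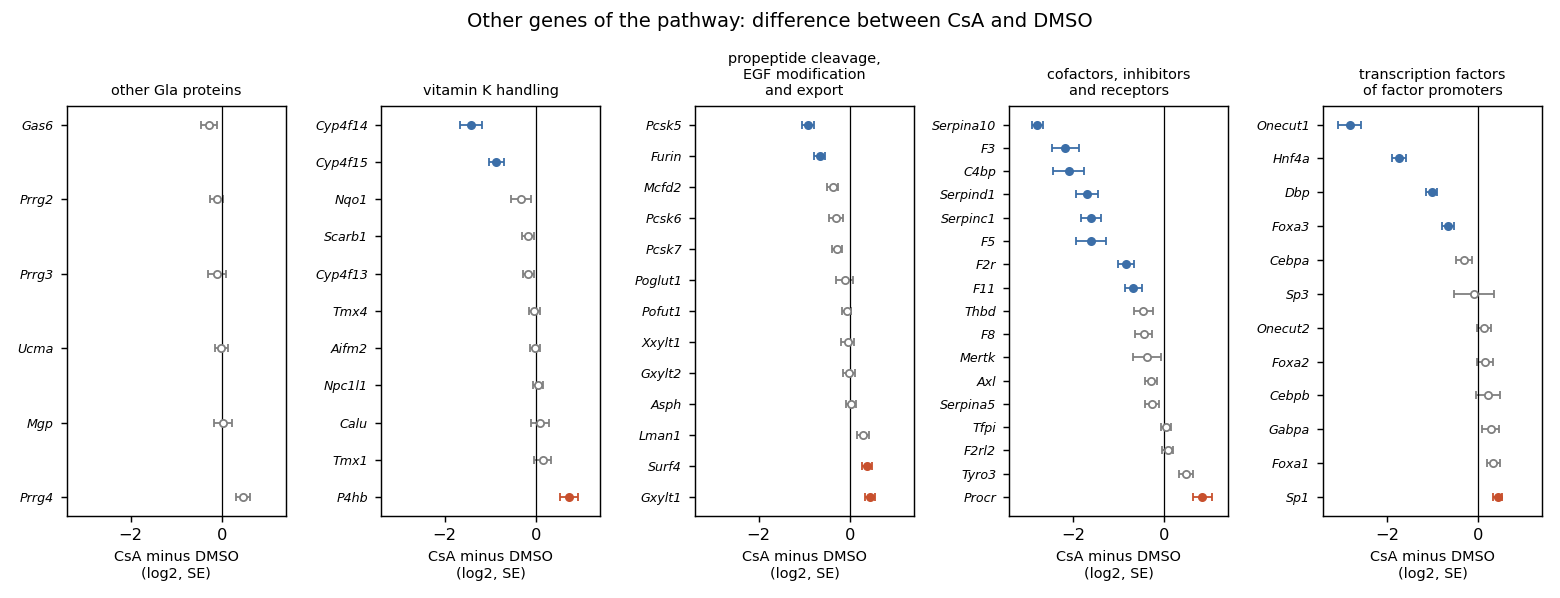
Log2 difference between CsA and DMSO ± SE (x axis) for the measured genes of 5 lists around the factors, 1 panel per list. Filled blue points passed as lower, filled red points as higher, and open grey points did not pass. The 8 blue points among cofactors, inhibitors and receptors run from -2.78 (Serpina10) to -0.67.

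The genes with profiles most like the mean of the 7 factors were sought among 15127 named rows over the 6 arrays, each gene centred on its own mean. The smallest root mean square differences, in log2 units, were those of Lgals3bp (0.047), Rtn4rl1 (0.056), Sema4g (0.067), Ppl (0.073) and Ech1 (0.074). Of the factors themselves F2 (0.10) and F7 (0.12) lay nearest to that mean, which they are part of, and Proz (0.71) and Pros1 (0.68) farthest.

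The mean of the hepatocyte markers per array was 13.40 to 13.87 in DMSO and 12.88 to 13.05 in CsA. Of 5 measured markers 3 were lower, against 9.05% of all rows, and 1 was lower with DMSO 2 or CsA 2 left out. The lower ones were Apob (-1.57), Apoa1 (-0.99) and Ttr (-0.58). Alb differed by -0.10 ± 0.096 (limma adjusted p = 0.564) and Tat by -0.19 ± 0.47 (limma adjusted p = 0.849). Alb was the brightest row in DMSO, at 15.30, 15.29 and 15.28. Array signals compress differences of the brightest rows, but whether this holds for Alb was not tested. Apoa1 and Ttr, with DMSO means of 14.43 and 14.16, passed as lower. No marker of another cell type was higher in limma (0 at an unadjusted p under 0.05). Those of Kupffer cells averaged 4.92 to 5.34 in DMSO and 4.85 to 4.99 in CsA, with 1 of 6 lower. Liver endothelium averaged 5.15 to 5.53 and 5.08 to 5.28 (1 of 6 lower), stellate cells 4.64 to 4.86 and 4.61 to 4.66 (0 of 6), cholangiocytes 5.94 to 6.02 and 5.62 to 5.78 (1 of 4, and 2 with the replicate block, which adds Krt19 at adjusted p = 0.0314 in limma), and blood cells and platelets 4.79 to 5.13 and 4.83 to 5.01 (0 of 4). Each of the 3 single calls was lost with some single array left out. Fewer hepatocytes and less RNA of a gene per hepatocyte cannot be told apart in such samples, and the part of the lower hepatocyte markers in the falls of the factors was not tested.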

How the data were processed

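The deposited table held log2 values made by the authors, 1 column per array; the submitters' processing notes name RMA and R 2.11.0. Neither the array model nor its probe set definition is given in the sources used here. Gene names came from the platform's annotation, which gave 15136 of 16331 rows a symbol and none several, while 1195 are unnamed here. RMA removes changes in total RNA, and array signals compress differences of the brightest and dimmest rows. Precision is limited by 3 arrays per group.

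Groups came from the titles. The comparison of CsA with DMSO used lmFit and eBayes of limma 3.58.1 (R 4.3.3), two-sided and without covariates, with Benjamini-Hochberg adjustment over all rows and a threshold of 0.05. The code was tested on simulated data. Intervals are 95% and unadjusted. Deviations from the group means of same-numbered arrays correlated at 0.398, 0.242 and 0.499 over rows, so the numbers were taken to pair arrays. Differently numbered arrays correlated at -0.496 to 0.221. The highest of these was DMSO 2 with CsA 1, close to the 0.242 of replicate 2, so that the pairing of replicate 2 is weakly backed. The labels do not state that same-numbered arrays share an animal, and the titles give the CsA arrays 1 shared prefix but the DMSO arrays 3. A second model blocked on replicate number is printed where it changes a call. Correlations between arrays were 0.990 to 0.997 within and 0.969 to 0.981 between groups.

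The members and lists were chosen with earlier results of these data known, so they get no test as lists. Named genes were all members, up to 4 genes per list with the smallest adjusted p, a fixed panel of 10 genes and the 5 most alike. Promoters and gene order came from RefSeq tables (GRCm38.p6).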

Additional observations from a re-analysis of the deposited data

How the results depend on the processing

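F2, F7, F9, F10, Proc and Proz kept their direction and call under all 15 alternatives, with adjusted p-values (limma) of at most 0.014. The number of genes lower was 6 to 7 with 1 array left out, and none was higher in any fit. Vkorc1 no longer passed with DMSO 1, DMSO 2 or CsA 2 left out or at a threshold of 0.01, with differences of -0.44 to -0.60 when 1 array was left out. Ggcx also passed with array weights, at -0.68 (limma adjusted p = 0.0288). With the replicate block Ggcx was the one gene of the 9 to change its call. Pros1 changed sign without passing, to 0.025 with array weights, 0.0072 with arrays centred on their medians and 0.052 without both arrays numbered 3. With 1 array left out it lay between -0.22 and 0.19 and was above 0 without DMSO replicate 1 (0.065) or CsA replicate 3 (0.19).

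Rows changed numbered 4686 with the block, 5190 with array weights, 1509 at a threshold of 0.01, and 1738 to 3219 with 1 array left out. The gap between factors and enzymes was -0.83 to -0.50 with 1 array left out. Variants chosen after seeing the data gave -0.84 without Pros1, -0.43 without Proz, -0.76 with Vkorc1 alone and -0.51 with Ggcx alone. The gap was not computed with the dimmest 50% of rows left out, since that leaves Ggcx out, or with Vkorc1l1 added. Another background correction was not run, since only summarised values were used.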
